A study of Mus musculus with 2 samples.

Results

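Chromosome 11 of the mouse carried 409 of the 7435 chromatin boundaries called in mature olfactory sensory neurons that express the odorant receptor gene Olfr16, and the other 18 autosomes carried 6626. All boundaries listed on chromosome 11 were taken. The chromosome was selected on its high boundary density, scores and share of Strong boundaries in this same list, so these are given as a description, and no test is attached to them. The neurons were isolated from olfactory epithelium; the mice were adult, of mixed sex and of unspecified strain, and carried the MOR23-GFP reporter (MOR23 is another name of Olfr16). They were taken from a single gate in flow cytometry, fixed with 1% formaldehyde and cut with DpnII for in situ Hi-C, an assay that ligates and sequences DNA ends lying close together in the nucleus. There were 2 biological replicates, of 28000 and 24400 sorted cells, no treatment and no other group. The authors called boundaries once, on the contacts of both replicates combined, so the list holds no replicate values, the depth behind each boundary is unknown, and no spread between replicates can be given. It holds no expression values, so the identity of the sorted cells could not be set against marker genes.

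A boundary is a position across which contacts are depleted, so that the stretches on its left and right (topologically associating domains) each contact themselves more than each other. Many mammalian boundaries lie where the zinc finger protein CTCF, bound to a motif with a direction, halts cohesin as it extrudes a loop of DNA. Others lie at starts of active genes, and gene-rich chromatin is usually divided into shorter domains than gene-poor chromatin. Each boundary here is a 5 kb interval of the GRCm38 assembly with a score and a class from the authors' caller, and in the file the class Strong begins at a score of 0.5. On chromosome 11 the lowest Strong score was 0.506 and the highest Weak score 0.498.

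The reference sequence at some of these boundaries shows what a match to the 12-base CTCF consensus looks like on this chromosome. Matches lay within 34 of the 409 boundaries, 8.31%, while 3.53% of all 5 kb bins of chromosome 11 held one. The 6 sequences below come from 5 of the 8 highest-scored boundaries that held a match and are read 5′ to 3′ on the strand of the match, with the consensus in capitals. They were selected after scores and matches were known, for the genes beside them, and those at Tac4 (score 1.99), Med31 (1.49) and Asic2 (1.303), also named after their values were seen, are not printed. The first and second overlap exons of Unc45b, outside its untranslated regions, a gene for a chaperone of myosin folding, within the boundary at chr11:82915001-82920000 that scored 2.29; the first is chr11:82915137-82915196 on the plus strand and the second chr11:82919730-82919789 on the minus strand. The third, chr11:111537818-111537877 on the plus strand, is in the gene desert between the potassium channel gene Kcnj2 and Sox9, a regulator of cartilage and testis development, at a boundary scored 2.04. The one at C1d, chr11:17280027-17280086 on the plus strand, is in a boundary scored 1.91 that lies 22.4 kb from this gene of a cofactor of the nuclear RNA exosome. The fifth, chr11:95117112-95117171 on the plus strand, is in a boundary scored 1.39 that ends 0.119 kb from the start of Dlx3, a homeobox gene of skin and tooth development. The sixth, chr11:113172577-113172636 on the plus strand, is in a boundary scored 0.967 beyond Sox9, within the noncoding gene 2610035D17Rik.
Unc45b, left: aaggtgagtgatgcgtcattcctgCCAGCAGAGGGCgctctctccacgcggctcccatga
Unc45b, right: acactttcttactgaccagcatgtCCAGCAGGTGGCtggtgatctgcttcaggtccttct
Kcnj2 to Sox9: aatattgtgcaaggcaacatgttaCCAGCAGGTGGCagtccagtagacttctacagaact
C1d: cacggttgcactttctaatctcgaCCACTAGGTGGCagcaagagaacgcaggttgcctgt
Dlx3: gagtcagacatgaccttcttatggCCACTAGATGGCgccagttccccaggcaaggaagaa
Beyond Sox9: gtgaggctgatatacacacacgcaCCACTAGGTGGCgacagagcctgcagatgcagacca

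All 16 forms that the consensus allows occurred among the 858 matches of chromosome 11. The commonest, CCAGCAGAGGGC, is the one on the left in Unc45b, with 146 matches. The form of the matches at C1d and beyond Sox9, CCACTAGGTGGC, occurred 43 times. A match describes letters in the reference genome, and binding of CTCF was not measured. Only these 16 exact forms were searched, so a boundary without a match is not shown to lack a CTCF site.

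Boundaries were dense on chromosome 11. It had 3.44 boundaries per Mb of assembled sequence (exact Poisson 95% interval 3.12 to 3.79), against a mean of 2.91 ± 0.172 (SD over the other 18 autosomes), and ranked first of the 19 autosomes. Chromosome 9 followed with 3.19 per Mb, inside that interval, and chromosome 14 was lowest with 2.495. The difference was in the Strong class. Strong boundaries stood at 2.10 per Mb, against 1.53 ± 0.168 and a highest value of 1.81 elsewhere (chromosome 9). Weak boundaries stood at 1.35 per Mb, rank 12 of 19, against 1.38 ± 0.0948. In all, 249 of 409 boundaries were Strong, 60.9% (exact 95% interval 56.0 to 65.6%), where 52.6% of boundaries of the other autosomes were.

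Spacing and score followed the same order. The median distance between neighbouring boundaries was 230 kb, with quartiles of 165 and 331 kb, the shortest median of the 19 autosomes, where the others ranged from 240 kb on chromosome 4 to 305 kb on chromosome 16. Strong boundaries alone were 330 kb apart, against 411 ± 33.1 kb. The median score was 0.661 (quartiles 0.365 and 1.03), also first of 19, against 0.532 ± 0.0492. The top of the distribution moved less than its middle. Scores of 1 or more made up 26.4% on chromosome 11 (108 of 409) and 24.3% on the others, scores of 2 or more 4.65% and 3.98%, and the upper quartile ranked 4 of 19. Very long gaps differed little from elsewhere: 10 of the intervals were longer than 1 Mb, 2.45%, rank 11 of 19, where the others had 3.02 ± 1.12%.

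Chromosome 11 also ranked first or last in several measures of sequence and gene content, which vary together. It had 13.8 protein-coding genes per Mb, second to 14.3 on chromosome 7. Without olfactory, vomeronasal and trace amine receptor genes, of which chromosome 7 has 398 and chromosome 11 has 82, chromosome 11 was first with 13.1 per Mb and chromosome 7 second with 11.5. GC content was the highest of the 19 at 43.8%, CTCF consensus matches were the densest at 7.23 per Mb (5.04 ± 0.781 elsewhere), and soft-masked repeats the fewest at 30.6% of bases (33.5 ± 1.24). DpnII sites, which set where contacts can be read, were near the average at 2.49 per kb (rank 11 of 19, 2.49 ± 0.0354 elsewhere). Relative to its genes chromosome 11 had few boundaries, 0.250 per protein-coding gene, rank 18 of 19.

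Over the other 18 autosomes, the density of Strong boundaries rose with the density of protein-coding genes (Pearson's r = 0.601, Spearman's rho = 0.744), while that of Weak boundaries showed no such relation (r = -0.0516, rho = -0.0753). Strong density was at least as closely related to GC content (r = 0.743, rho = 0.787) and to CTCF matches per Mb (r = 0.694, rho = 0.748). These 18 points share the caller and the libraries, and their GC content varies with gene density. A straight line through them gave 1.76 Strong boundaries per Mb at the gene density of chromosome 11, which had 0.336 more (SD of the points about the line 0.139). With receptor genes left out, the line gave 1.85 and chromosome 11 lay 0.247 above it (SD 0.134). Here the line was extended beyond its points, which end at 11.5 genes per Mb, to the 13.1 of chromosome 11. The SD about the line does not cover that extension. The line on GC content gave 1.87, and chromosome 11 lay 0.230 above it (SD 0.116). That line too was extended, from 43.1% to 43.8% GC. On GC content the Strong share of chromosome 11 lay 1.63 percentage points above its line (SD 2.66). For Weak boundaries the difference from the line on all protein-coding genes was -0.0205 (SD 0.0976).

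**Figure D1:**
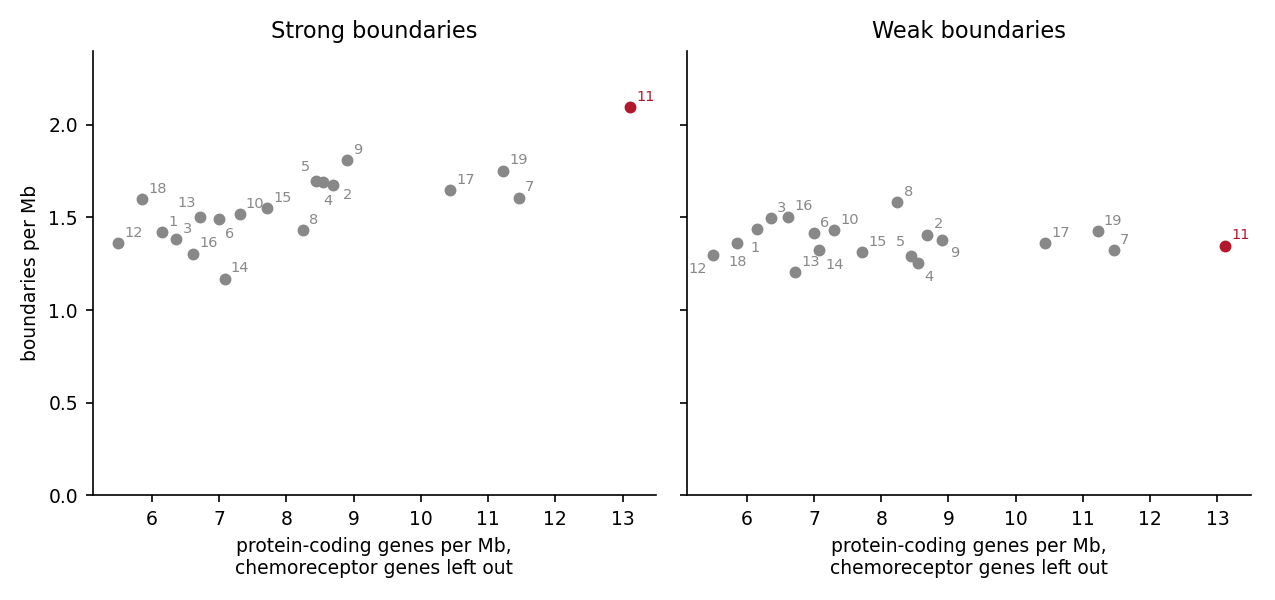
Strong (left) and Weak (right) boundaries per Mb of assembled sequence against protein-coding genes per Mb, without chemoreceptor genes, 1 point for each of the 19 autosomes. Chromosome 11 (red) is highest for Strong boundaries at 2.10 per Mb and lies among the others for Weak boundaries at 1.35 per Mb.

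Along the chromosome, boundaries were crowded where genes were crowded. In 23 windows of 5 Mb, from 5 to 120 Mb, which held 389 of the 409 boundaries, density ran from 1.8 to 5.2 boundaries per Mb and gene density from 1.2 to 33.4 protein-coding genes per Mb. The other 20 boundaries lay at the ends of the chromosome, outside these windows, so the ends are missing from this map. At the centromere end, from 3195001 to 4985001, neighbouring boundaries were only 75 to 260 kb apart. The first 8 windows, from 5 to 45 Mb, each had under 10 genes per Mb, and all windows with more lay beyond 45 Mb. The lowest density, 1.8 per Mb, was in the window with the fewest genes, 35 to 40 Mb. The windows at 10 to 15 Mb and 15 to 20 Mb, with 2.0 and 2.6 genes per Mb, had 2.0 boundaries per Mb each, and no boundary of either had a coding start within 10 kb. The highest-scored boundary of each of these 3 windows lay near Pank3, a pantothenate kinase of coenzyme A synthesis (19.5 kb away, score 1.23), Cobl, an actin nucleator (110 kb, 2.11), and C1d (22.4 kb, 1.91).

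At the other end, the window at 75 to 80 Mb held 26 boundaries, 5.2 per Mb, with 20.2 genes per Mb. Its highest-scored boundary, 2.16, overlapped an exon of the neuronal membrane protein gene Sez6 (named after its values were seen) and lay 2.75 kb from the start of Phf12, a PHD finger regulator of transcription. The windows at 95 to 100 Mb and 115 to 120 Mb held 25 each, 5.0 per Mb, with 33.4 and 24.4 genes per Mb. They led with boundaries near Nxph3, a secreted partner of neurexins (10.4 kb, 2.26), and 109 kb from Gm11733 (1.92). Median spacing was 175, 170 and 170 kb in these 3 windows, against 325, 360 and 370 kb in the 3 of lowest density.

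The windows of 5.0 boundaries per Mb were made differently. At 95 to 100 Mb, which holds the Hoxb genes and part of the keratin genes, only 44% of boundaries were Strong and the median score was 0.491. At 115 to 120 Mb, with the highest GC content (50.5%) and most CTCF matches (15.8 per Mb) of the 23 windows, 84% were Strong and the median was 0.785. A window could also be rich in genes and poor in boundaries: 70 to 75 Mb had 26.0 genes per Mb but 3.0 boundaries per Mb, at the highest median score of the 23 (0.864). It contains an olfactory receptor cluster with no boundary before its last gene, described further on.

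**Figure D2:**
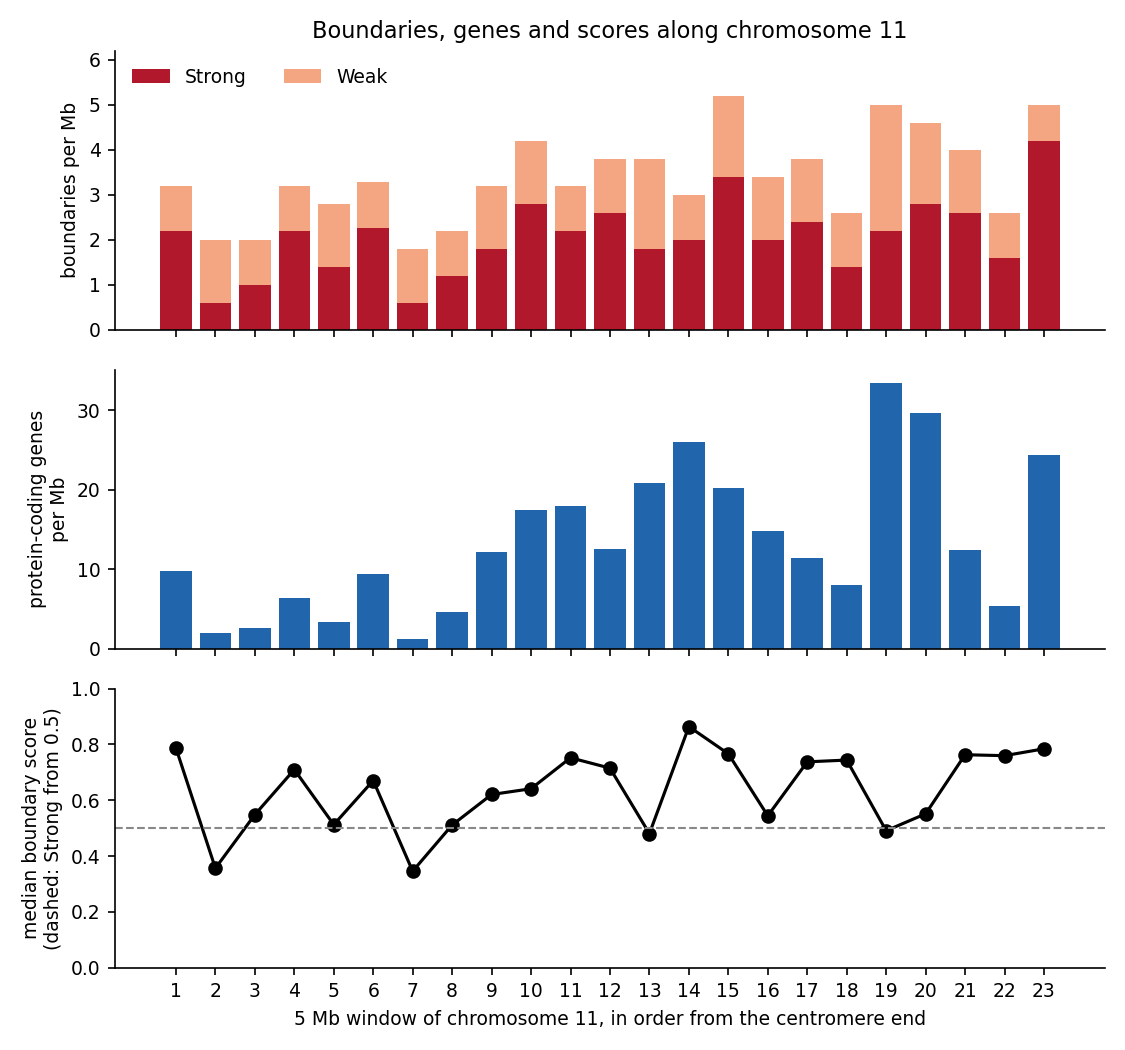
Boundaries per Mb by class (top), protein-coding genes per Mb (middle) and median boundary score (bottom) in the 23 windows of 5 Mb along chromosome 11, in order from the centromere end. Density is lowest in window 7 (1.8 per Mb) and highest in window 15 (5.2 per Mb), while the median score stays between 0.346 and 0.864.

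Over these 23 windows, boundary density and gene density had r = 0.814 and rho = 0.819. The other 18 autosomes, taken by chromosome, gave rho from 0.330 to 0.917 with a median of 0.661. Adjacent windows of a chromosome are not independent and all come from the same libraries. Gene density shared its course with GC content (rho = 0.922) and CTCF matches (rho = 0.874), and boundary density tracked these as closely as it tracked genes (rho = 0.883 and 0.880), so genes, GC and CTCF matches cannot be told apart at this scale. Density had rho = -0.239 with DpnII sites.

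Score behaved differently from density. Median score and gene density had rho = 0.325 (r = 0.251) over the 23 windows. On this grid that was lower than on any of the other 18 autosomes, where rho ran from 0.377 to 0.781. The 2 lowest medians, 0.346 and 0.357, were in the gene-poor windows at 35 to 40 and 10 to 15 Mb. Above these, medians neither rose nor fell steadily with genes: the window with the most genes had 0.491, and a window with 5.4 genes per Mb, 110 to 115 Mb, had 0.760. The median was under 0.5 in 4 windows and above it in 19. The relation changed with the grid, to rho = 0.483 with windows moved by 2.5 Mb and 0.538 in 10 Mb windows. The rank among autosomes is therefore given for this grid only. Among Strong boundaries alone the relation turned negative (rho = -0.120).

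**Figure D3:**
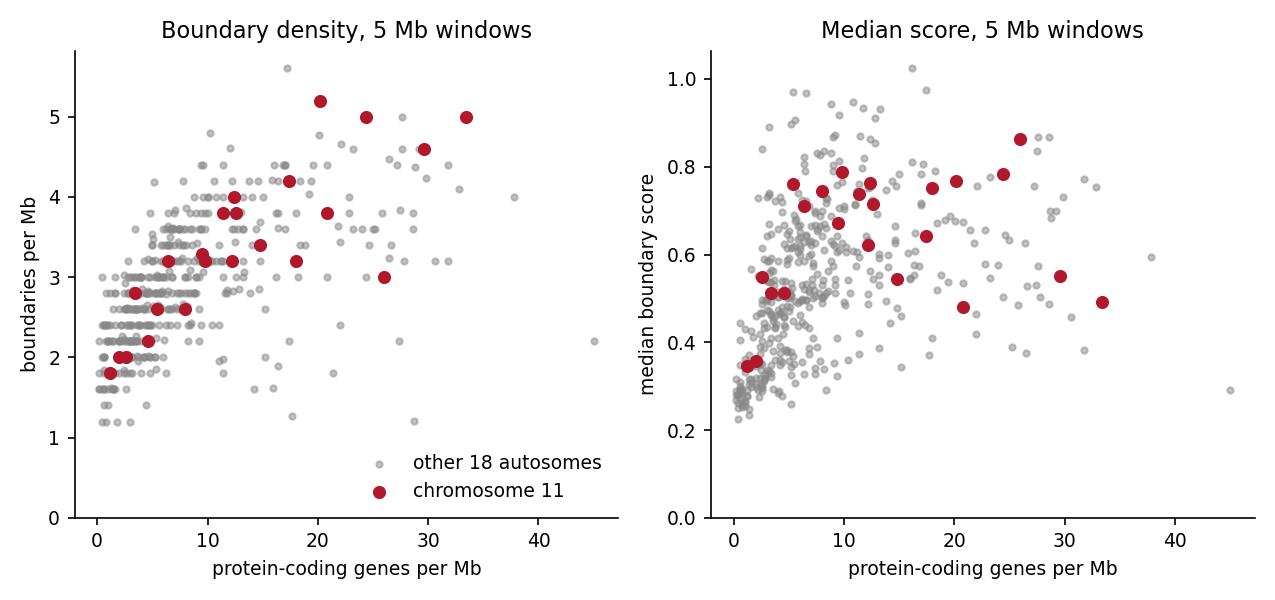
Boundary density (left) and median boundary score (right) against protein-coding genes per Mb in 5 Mb windows, 23 of chromosome 11 (red) and 449 of the other 18 autosomes (grey). Density on chromosome 11 climbs with genes (rho 0.819), and the median score shows a looser relation (rho 0.325).

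The higher density of chromosome 11 shrank when windows of like gene content were compared. Its windows held 1.17 times the boundaries per Mb of the others' windows. When each window was set against windows of the other autosomes with like gene density, 389 boundaries were observed where 364.7 were computed, a ratio of 1.07 (exact Poisson 95% interval 0.963 to 1.18, counting error only). By this ratio chromosome 11 was second to chromosome 18 (1.08), and chromosome 7 was last (0.889). For Strong boundaries the ratio went from 1.35 to 1.15 (1.01 to 1.303), or to 1.10 (0.965 to 1.25) with windows of like GC content. By the Strong ratio at like gene density, chromosome 11 was again second to chromosome 18 (1.20), with chromosome 15 next (1.13). For Weak boundaries the ratio was 0.967 before and 0.963 after.

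For all boundaries together, the remaining difference varied with gene density. In windows with 20 or more genes per Mb, chromosome 11 had 4.43 boundaries per Mb (3.71 to 5.25, 6 windows) and the others 3.64, a ratio of 1.22, or 1.15 with receptor genes left out. With 10 to 20 genes per Mb the densities were 3.66 and 3.41. Below that chromosome 11 was not denser: it had 2.98 against 3.08 at 5 to 10 genes per Mb, 2.25 against 2.47 at 2 to 5, and 1.80 against 2.04 in its only window under 2. The ratio thus went from 0.883 in the gene-poorest class to 1.22 in the gene-richest. For Strong boundaries alone the ratios were 1.37, 0.959, 1.10, 1.12 and 1.27 from the gene-poorest class to the gene-richest. The 1.37 rests on 1 window with 3 Strong boundaries, and from the next class upward the ratios rose at each step. The classes of chromosome 11 hold 1 to 7 windows, and the difference between classes was not tested.

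The 10 highest-scored boundaries of chromosome 11 scored from 2.23 to 3.91 and were spread along it, from position 3195001 to position 108430001. The highest, 3.91 at chr11:3195001-3200000, ranked 2 among all 7435 scores. It was the first boundary of the chromosome, close to the first assembled base at 3100001, lay in an intron of the GTPase gene Drg1 (named after its values were seen) and was 1.54 kb from the start of Sfi1, which encodes a centrin-binding protein of the centrosome. Soft-masked repeats covered 56.5% of it, and their part in its score was not tested. The second, 3.13 at chr11:100315001-100320000, contained the start of Eif1, a translation initiation factor, and formed the distal edge of the keratin genes. Next, at 2.86, was a boundary over an exon of Cep112, a centrosomal protein gene whose start lay 4.81 kb away.

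Some of the others faced long intervals. The boundary 30.8 kb from Utp18, a factor of small ribosomal subunit assembly, scored 2.71 and had no neighbour for 1130 kb on its left. The boundary 21.5 kb from 6330403K07Rik scored 2.71 and had none for 975 kb on its right. Next came boundaries 29.7 kb from the cyclin gene Ccng1 (2.505), 4.45 kb from Unc45b (2.29), 10.4 kb from Nxph3 (2.26), 10.7 kb from Pnpt1, an exonuclease of mitochondria (2.25), and 3.57 kb from 9530068E07Rik (2.23). Of these 10, the boundary in Unc45b, printed above, was the only one that held a CTCF consensus match, and those near Ccng1 and Nxph3 had matches within 10 kb. Of the 100 highest scores of the whole list, 6 were on chromosome 11 and 94 on the other 18 autosomes. Chromosome 11 holds 409 of the 7435 boundaries and those autosomes 6626, so 6 is about its share.

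Boundaries lay near gene starts more often than the chromosome at large. A protein-coding start lay within 10 kb of 166 of the 409 boundaries, 40.6% (exact 95% interval 35.8 to 45.5%), against 25.4% of all 5 kb bins of chromosome 11. On the other autosomes it was 27.7% of boundaries and 16.8% of bins. The share of chromosome 11 was thus the highest of the 19, but its ratio to its own bins, 1.60, was close to the 1.65 of the others. A CTCF consensus match lay within 10 kb of 126 boundaries, 30.8% (26.4 to 35.5%), against 15.7% of bins, and near 23.5% of boundaries and 11.1% of bins elsewhere. Counted over genes, a boundary lay within 10 kb of 236 of the 1639 coding starts, 14.4%, and of 12.4% on the other autosomes. Boundaries were also denser on chromosome 11, 3.44 per Mb against 2.91, so more sequence lay within reach of one. Counted over consensus matches it was 163 of 858, 18.998% (16.4 to 21.8%). Boundaries with 10 kb on either side make up 8.61% of the length of chromosome 11.

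Strong boundaries were near either feature more often than Weak ones. Coding starts lay near 44.6% of the Strong class (38.3 to 51.0%) and 34.4% of the Weak class (27.1 to 42.3%), intervals that overlap. A CTCF match was near 34.5% of Strong (28.6 to 40.8%) and 25.0% of Weak ones (18.5 to 32.4%). By combination, 67.3% of the 52 boundaries with both were Strong (52.9 to 79.7%), 66.7% of the 114 with a start only, and 68.9% of the 74 with a match only. The other autosomes gave 71.3%, 61.0% and 66.6%. Of the 169 with neither, 51.5% were Strong (43.7 to 59.2%), at a median score of 0.545. Boundaries with neither on the other autosomes were Strong in 43.05% and had a median score of 0.423.

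At closer range the classes were not clearly apart. A coding start lay inside 28 of 160 Weak boundaries, 17.5% (11.95 to 24.3%), and inside 35 of 249 Strong ones, 14.1% (9.99 to 19.003%), intervals that overlap widely. On the other autosomes it was inside 6.14% of Weak and 10.0% of Strong boundaries, and none of the 18 had a Weak share above 10.4%. Relative to the 5 kb bins of the same chromosomes, the ratio for Weak boundaries was 2.79 on chromosome 11 and 1.58 elsewhere, and for Strong boundaries 2.24 and 2.57. At 10 kb the ratios for Weak boundaries were 1.35 and 1.26. The Weak share was picked out after its value was seen and rests on 28 boundaries. Among them were those at Mrpl22, Psme3, Mks1, Brca1 and Col1a1.

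**Figure D4:**
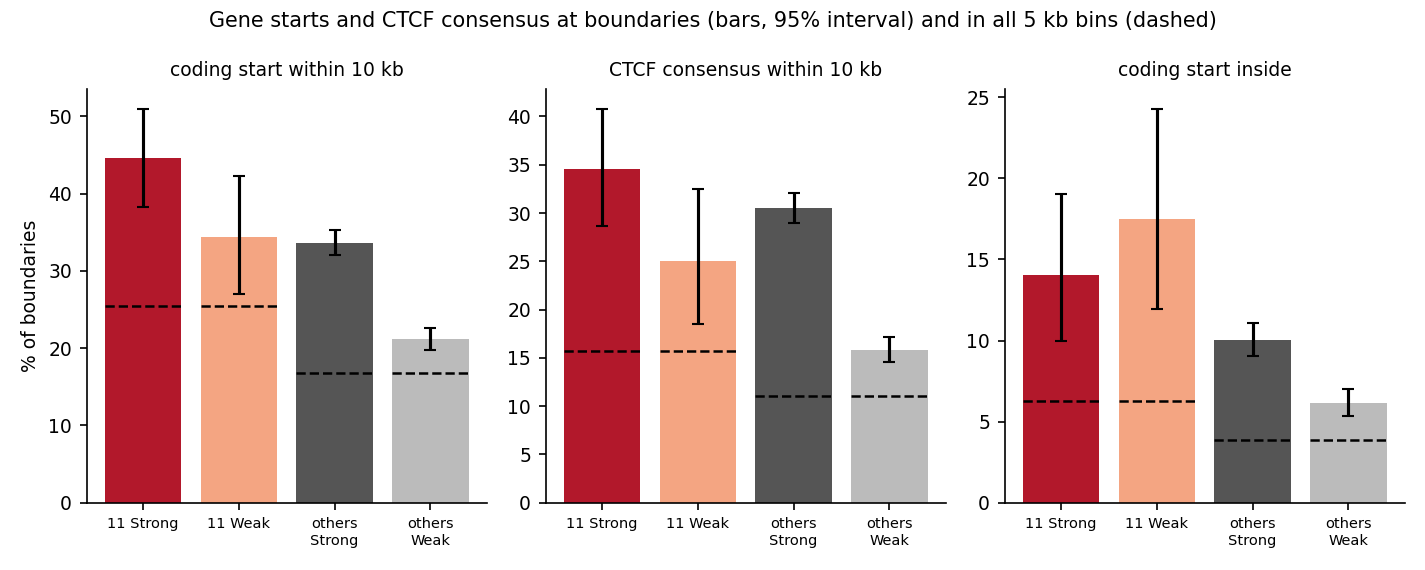
Share of Strong and Weak boundaries with a protein-coding start within 10 kb (left), a CTCF consensus match within 10 kb (middle) and a coding start inside (right), on chromosome 11 and the other 18 autosomes. Bars carry exact 95% intervals for counting error and dashed lines give the share of all 5 kb bins; at right, Weak boundaries of chromosome 11 reach 17.5% where those of the others reach 6.14%.

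The direction of the CTCF consensus changed across boundaries. Within 50 kb to the left of a boundary's midpoint, 93 of 246 matches were on the plus strand, 37.8% (31.7 to 44.2%), and to the right 154 of 230, 67.0% (60.5 to 73.0%). The other autosomes gave 35.4% and 63.5%. The matches thus pointed mostly away from the boundary into the flanking domains, as on other chromosomes. The pair in Unc45b runs the other way, plus on the left and minus on the right of the midpoint.

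The 408 intervals between neighbouring boundaries, edges not included, held a median of 3 protein-coding starts, and 70 of them, 17.2%, held none. Short intervals were gene-rich. In 4 equal groups by length, the shortest intervals, 75 to 165 kb long, had 22.9 starts per Mb, those up to 230 kb had 18.9, those up to 330 kb had 16.6, and the longest, 335 to 1955 kb, had 7.06. Spacing and starts per Mb had rho = -0.381 over the 408 intervals. Interval length is the denominator of starts per Mb, so these measures are not independent. From shortest to longest, the groups of 102 intervals held 320, 381, 469 and 397 starts. Only 4 intervals were under 100 kb. The scores of neighbours showed little relation (rho = -0.0344), with 152 intervals between 2 Strong boundaries, 64 between 2 Weak ones and 192 mixed.

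The 5 longest intervals held at most 1 coding start each between their edge boundaries. The longest, 1955 kb at chr11:13940001-15900000, between the Cobl and Vstm2a sides, contained the start of Pom121l12 only, and 47.7% of it was soft-masked. Those at chr11:27020001-28340000 (1315 kb, between Vrk2, a nuclear kinase, and Gm6685) and chr11:38235001-39550000 (1310 kb, between Tenm2, a synaptic adhesion protein, and Mat2b, a subunit of S-adenosylmethionine synthesis) had no coding start there; the right edge boundary of the first contains the start of Gm6685. The interval of 1290 kb at chr11:56170001-57465000 held Gria1, a subunit of AMPA glutamate receptors, between Nmur2 and Fam114a2. That of 1130 kb at chr11:92720001-93855000 held Car10, a carbonic anhydrase-related brain protein, between Kif2b and Utp18. The edges of the Gria1 interval scored 0.808 on the left and 1.82 on the right, and those of the Car10 interval 0.231 and 2.71. Both edges of the longest interval were Weak, at 0.249 and 0.255.

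The next in length was full of genes. The interval at chr11:73255001-74370000, 1110 kb, held 36 coding starts, mostly olfactory receptor genes.

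**Figure D5:**
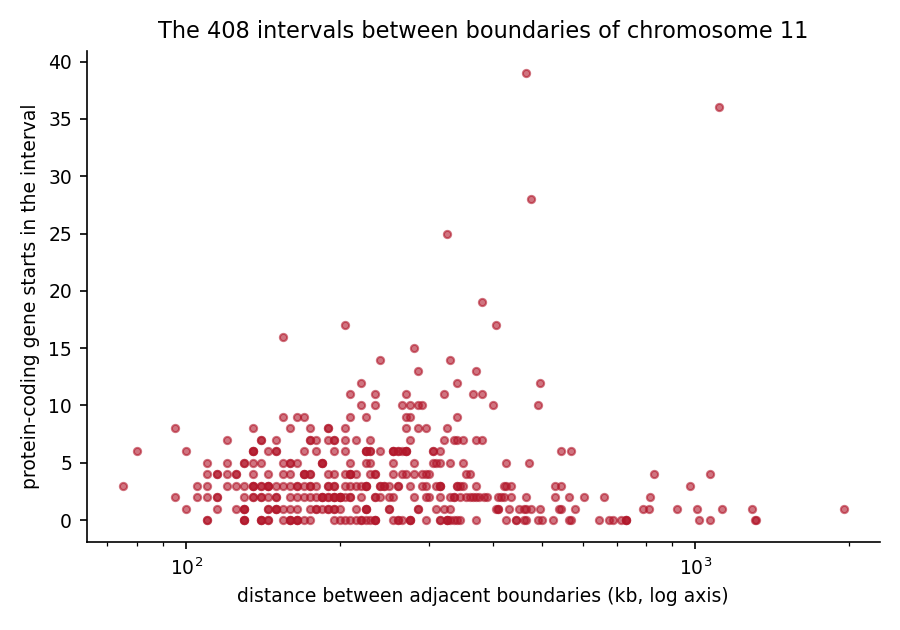
Number of protein-coding starts in each of the 408 intervals between neighbouring boundaries of chromosome 11 against interval length in kb (log axis). Intervals longer than 500 kb hold few starts, apart from the 1110 kb interval with 36 starts at an olfactory receptor cluster; the interval with the most, 39, spans keratin-associated genes.

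Runs of boundaries of the same class are described here by position only, and whether they are longer than an unordered sequence would give was not tested. The longest run of Strong boundaries was 9, over chr11:48760001-50940000, across the receptor genes from Olfr56 to Olfr1380 and genes beyond them, with 59 coding starts. A run of 8 covered chr11:118750001-120810000, with 61 coding starts, and a run of 7 covered chr11:18820001-20945000 around Meis1, a homeobox gene of limb and blood development, with only 9 starts. The longest Weak run, 7 boundaries scored 0.215 to 0.497, was packed into 930 kb at chr11:97155001-98085000, 7.53 per Mb, among 25 coding starts that include Rpl23, a ribosomal protein gene. The Strong runs of 9, 8 and 7 had 4.13, 3.88 and 3.29 boundaries per Mb, where the whole chromosome had 3.44. Each run is cut at its own end boundaries and counts both, which raises its value.

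Tandem gene families differed in how many boundaries they held. Of the 80 olfactory receptor genes on chromosome 11, 4 had a start within 10 kb of a boundary, 5.00% (1.38 to 12.3%), against the 14.4% of all coding genes of the chromosome; tandem genes share their neighbourhood, so this interval is too narrow. The largest cluster, the 29 genes from Olfr20 to Olfr412 (chr11:73350783-74366218), had no boundary midpoint inside, though a boundary overlapped the last gene. Strong boundaries stood at its sides, one scored 1.23 at 90.8 kb before Olfr20, and one scored 2.18 over Olfr412. The 20 genes from Olfr30 to Olfr311 had a boundary only at their end, scored 1.77 and 0.750 kb from the start of Olfr311. The 19 genes from Olfr56 to Olfr1380, which are mixed with other genes, had 2 Strong boundaries inside, scored 1.12 and 2.00; the second lies 4.74 kb from Olfr10 and 9.72 kb from Olfr1392. Smaller clusters, Olfr1378 to Olfr1375, Olfr1373 to Olfr1371, Olfr222 to Olfr223 and Olfr462 to Olfr464, of 2 to 5 genes and 23.0 to 82.5 kb, had none, and at that length a count of 0 says little. A mature olfactory neuron typically expresses only a single receptor gene, here Olfr16, which is not on this chromosome.

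The next cluster mixes type I keratins, intermediate filament genes of epithelia and hair, with genes of keratin-associated proteins of the hair. These 48 genes from Krt222 to Krt42 (chr11:99232761-100269871) contained 2 Weak boundaries, scored 0.389 and 0.324. A start lay within 10 kb of one for 2 of the 48, Krtap31-2 and Krtap9-5, both of keratin-associated proteins. The cluster lay between a Strong boundary scored 0.558 at 47.8 kb from Krt222 and the boundary at Eif1, scored 3.13, at 45.1 kb from Krt42. The edges were thus very unequal. Hoxb, the homeobox cluster that patterns the body axis, had 1 boundary inside, Weak at 0.491 (chr11:96250001-96255000), in the gap between Hoxb13 and Hoxb9 and 16.5 kb from Hoxb9. None of the 10 Hoxb starts was within 10 kb of a boundary, and no boundary fell from Hoxb9 to Hoxb1.

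Other clusters were each divided in their own way. The muscle myosin heavy chain genes Myh3 to Myh13 had a Strong boundary scored 1.70 between the embryonic gene Myh3 (36.7 kb) and the adult gene Myh2 (51.0 kb). The alpha globin genes Hba-x to Hbq1a, which encode a chain of haemoglobin, lay together between boundaries scored 0.921 and 1.40, 101 kb before and 139 kb after them. The region of Kif3a, Il4, Il13, Rad50, Il5, Irf1, Csf2 and Il3, known for its T helper cytokine genes, contained 4 boundaries: 0.604 at the start of Rad50, a DNA repair gene, 0.616, 0.283, and 1.24 between the cytokine genes Csf2 (5.33 kb) and Il3 (7.28 kb). The chemokine genes Ccl2 to Ccl1 held a Weak boundary (0.355) and Ccl5 to Ccl4 a Strong one (1.03), 9.48 kb from Ccl5. The schlafen genes Slfn5 to Slfn14, linked to cell growth and antiviral defence, held 1 boundary (0.545), 16.7 kb from Slfn14, and the boundary in Unc45b lay 31.3 kb before Slfn5.

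Housekeeping genes that are scattered singly gave higher shares, on few genes. A boundary was within 10 kb of 3 of 7 cytosolic ribosomal protein genes (Rpl26 inside a boundary scored 0.897, Rpl23a at 1.42 kb from one scored 0.240, Rps27a at 6.89 kb from one scored 0.590), and Rpl23 lay at 12.4 kb. It was within 10 kb of 4 of 11 mitochondrial ribosomal protein genes: Mrpl22, Mrps23 and Mrpl12 started inside boundaries scored 0.346, 0.996 and 0.616, and Mrpl10 lay 8.44 kb from one scored 1.19. For proteasome subunits it was 3 of 8, with Psme3 inside a Weak boundary (0.289), Psmd3 at 2.55 kb (1.42), Psmd12 at 5.52 kb (1.34), and Psmc5 outside the limit at 28.8 kb. The intervals of these shares, 9.90 to 81.6%, 10.9 to 69.2% and 8.52 to 75.5%, each include the 14.4% of all coding genes.

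Regulators stood closer to that background. Among 30 developmental transcription factors, 4 had a boundary within 10 kb, 13.3% (3.76 to 30.7%): Dlx3 at 0.119 kb (1.39), Etv4 at 0.371 kb (1.19), Ebf1 at 7.32 kb (1.42) and Lhx1 at 9.47 kb (Weak, 0.365). Among 20 chromatin regulators there were 2, Brca1, a DNA repair gene inside a Weak boundary (0.376), and the mitotic kinase gene Aurkb at 5.65 kb (0.529). The next, Smarcd2 and Kdm6b, were at 12.03 and 18.7 kb. Among 12 cilium genes there was 1, Mks1, a gene of the ciliary transition zone, inside a Weak boundary (0.441); Foxj1, the regulator of motile cilia, was at 25.4 kb, Tmem107 at 30.8 kb and Kif19a at 34.6 kb.

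Of 12 genes put in a neuron list, not all of them particular to neurons, 2 had a boundary within 10 kb. That is 16.7% (2.09 to 48.4%), near the 14.4% of all coding genes. Rtn4, the reticulon known as an inhibitor of axon growth, was 2.95 kb from a Strong boundary scored 0.698. Ebf1, which regulates olfactory neuron genes, was 7.32 kb from one scored 1.42. Then came Dlg4, a scaffold of the postsynapse, at 13.1 kb (1.21) and Nsg2, a neuronal endosome protein, at 15.5 kb (1.61). Syngr2, Nefh, Vamp2, Kif1c and Mapt, genes of vesicles, neurofilaments and transport along microtubules, lay at 35.3, 36.9, 41.5, 65.5 and 73.6 kb. Camk2b, Adcy1 and Gria1, of synaptic signalling, lay at 96.4, 112 and 449 kb. The median distance of the 12 was 39.2 kb, and that of all coding genes of the chromosome was 48.0 kb.

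Of 3 imprinted genes, 2 had a start within 10 kb of a boundary, and these are nested genes at the same boundary. Commd1 and Zrsr1, a pair in which Zrsr1 sits within Commd1 and is expressed from the paternal copy, share a Strong boundary scored 1.51, which contains the start of Commd1 and lies 8.00 kb from that of Zrsr1. Grb10, an adaptor that restrains insulin signalling, started 23.7 kb from a Weak boundary scored 0.487.

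Of 10 further well-known genes, Col1a1, a collagen gene, and Brca1 started inside Weak boundaries scored 0.323 and 0.376. Sox9 was 17.2 kb from a Weak one (0.404), Gfap, the filament gene of astrocytes, 20.9 kb from a Strong one (1.22), and Kcnj2 21.2 kb from a Strong one (1.47). Meis1, Erbb2, Kcnj16 and Trp53 lay at 51.0, 57.5, 72.0 and 89.6 kb from Strong boundaries and Egfr at 158 kb from a Weak one. The stretch from Kcnj2 to Sox9, 1716 kb without another coding gene, is known from limb and sex development for domains that separate these neighbours. It contained 4 boundaries. The first, 469 kb from Kcnj2, was Strong at 2.04 and carries the third of the sequences shown. The other three, nearer Sox9, were Weak at 0.324, 0.214 and 0.404. The next Strong boundary, 388 kb beyond Sox9 at 0.967, carries the sixth.

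Gene bodies held 241 of the 409 boundaries, 58.9% (54.0 to 63.7%), where they cover 53.0% of the 5 kb bins. The other autosomes gave 45.0% of boundaries and 44.1% of bins. The excess inside gene bodies was thus small beside that at gene starts and CTCF matches.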

How the data were processed

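In situ Hi-C of sorted Olfr16-expressing neurons gave 1 list of boundaries. The series design text states that its authors derived it from the merged contact matrix of both replicates on GRCm38, a build also named in the submitters' processing notes. The deposited score is the caller's own value for each boundary and served only for description, ranking and splitting by class. Caller, score formula, window size, aligner and read filters: not given in the sources used here. Contact matrices, insulation and compartment tracks were not used here.

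Gene models were those of GENCODE release M21, and the sequence was RefSeq's copy of GRCm38; all coordinates lay within their chromosomes and are 1-based. Per-Mb values use bases that are not N. "Near" means within 10 kb, measured in bases from the edges of the 5 kb boundary or bin, for shares and for gene distances. Windows were 5 Mb with at least 50% assembled bases. Spacing is from midpoint to midpoint, and a boundary is inside a cluster when its midpoint is. The CTCF consensus was searched on both strands, with no mismatch allowed. Windows were compared within 5 gene density classes (edges 2, 5, 10 and 20 per Mb). No test was run: chromosome 11 was chosen on these values, and an exact permutation of 1 chromosome against 18 cannot go below 1 in 19. Intervals (Clopper-Pearson or Poisson, 95%) cover counting error only.

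The members and gene lists were chosen with earlier results of these data known. Named genes were those nearest (up to 50 kb) to the 10 highest-scored boundaries, in or beside the 5 longest intervals, at the ends of clusters, in the neuron, imprinted and well-known lists, the 4 nearest to a boundary in each other list, and those nearest to the highest-scored boundary of the 3 densest and 3 sparsest windows; other names were chosen after their values were seen. The result of 1 gene list is not reported here. Gene density without receptor genes was added after the data were seen. The counting script was tested on simulated data. Python 3.11.15, numpy 2.4.6, pandas 2.3.3, scipy 1.17.1 and matplotlib 3.10.9 were used.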

Additional observations from a re-analysis of the deposited data

How the results depend on the processing

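The relation of boundary density to gene density over windows kept its sign in every setting tried: rho was 0.819, from 0.795 with 2 Mb windows to 0.875 without receptor genes, 0.700 for Strong boundaries alone, and 0.793 to 0.901 with each window left out in turn. The relation of median score to gene density was less stable. Its rho of 0.325 became 0.538 in 10 Mb windows, 0.483 with windows moved by 2.5 Mb, and -0.120 for Strong boundaries alone, and ran from 0.229 to 0.461 with each window left out; the cause was not tested. Restricting to Strong boundaries gave 2.10 boundaries per Mb and a median spacing of 330 kb, by construction. The mean score was 0.795. The share of boundaries with a coding start was 15.4% for overlap, 61.4% within 25 kb and 53.3% with all annotated genes, and that with a CTCF match was 8.31% for overlap and 51.6% within 25 kb, as wider limits must give. The ratio to windows of like gene density lay between 1.05 and 1.07 in the settings tried. No paired analysis was possible because the list pools both replicates, and for the same reason no replicate could be left out. Depth per boundary is unknown, and windows hold only 9 to 26 boundaries, which limits their medians.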
